A study of Mus musculus with 6 samples.

Results

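The 54 genes described here encode the machinery that copies DNA. They are subunits of the origin recognition complex, the helicase, the polymerases, the sliding clamp and its loaders, enzymes that join fragments or supply nucleotides, and proteins that carry histones and chromatin factors to the fork. They were listed by name, and all 54 had a row in each of 6 count tables of 23284 gene symbols. All 54 also passed the filter on low counts, as part of 10512 tested genes, and the fewest reads of any of them in a library were 43 (Hells in control replicate 1).

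The tables come from polyadenylated RNA of live erythroblasts, the nucleated precursors of red cells, taken from C57BL/6 mouse embryos at E10.5 (embryonic day) and sorted as positive for Ter119 and CD71, surface proteins of the red cell lineage. The 3 null libraries had the genotype SETD8fl/fl EpoR Cre, in which Cre recombinase from the erythropoietin receptor locus, active in erythroid cells, deletes floxed Setd8. Of the 3 controls, replicates 1 and 3 were Setd8 +/+ EpoRCre, so they carried Cre like the null embryos, and replicate 2 was Setd8 fl/fl EpoR WT, with floxed alleles and no Cre. The labels name fetal liver as the source and the design text names fetal blood. The Setd8 enzyme monomethylates histone H4 at lysine 20, and the comparison asked how gene expression differs without it.

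The sample titles split the libraries into 2 sets. The unlettered set (control replicates 1 and 2, null replicate 1) has no letter at the end of its titles, and the lettered set (control replicate 3, null replicates 2 and 3) has one. The sets differed in 17.7% of tested genes that were higher and 10.9% that were lower in the lettered set, so null was compared with control with the set as a term in the model, called set-adjusted here. Gene counts summed to between 7756940 and 21434719 reads per library. Setd8 stood at 73.9, 74.8 and 203 CPM in control cells and 48.9, 100.3 and 96.3 CPM in null cells. Its set-adjusted level fell by 0.83 in log2 units (SE 0.17, edgeR adjusted p = 0.00911) and did not pass with group as the only term (edgeR adjusted p = 0.702). The counts are per whole gene, so this level includes any reads from outside the deleted part and does not measure the deletion itself. Y-linked transcripts were abundant in all 3 null libraries and in 1 of 3 controls (replicate 1) and at or near 0 in the other controls. Of 11 erythroid markers, 3 were lower (Tfrc, Epor and Hba-x) and 0 higher. Tfrc encodes CD71, on which the cells were sorted, and Epor is the locus that carries Cre. What this does to their levels was not tested. Markers of other cells were low, and some were higher in null cells. Of 8 macrophage markers 3 were higher, with summed levels of 1.92 to 6.65 CPM (reads per 1000000 of the library, scaled by trimmed means) in controls and 28.7 to 68.5 in null libraries. Of 6 endothelial markers 2 were higher (0.3195 to 1.49 against 5.74 to 20.04 CPM), and of 6 megakaryocyte markers 1, Itga2b (sums of 14.2 to 31.0 against 40.5 to 83.3). Itga2b made up most of that sum in the null libraries, at 36.6, 67.1 and 50.1 CPM. The other megakaryocyte markers tested, Pf4, Gp1bb and Gp9, did not pass (log2 ratios 0.096, 1.14 and -0.37). The macrophage gene Emr1 and the endothelial genes Cdh5 and Esam had 0 reads in controls, hepatic Alb and mesenchymal Dcn had 0 in all 6 libraries, and of the 12 hepatic and mesenchymal markers only Col1a2 had enough reads to be tested and did not pass. The part of these cells in the results below was not tested.

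Replication begins in G1, when the origin recognition complex, Cdc6 and Cdt1 load rings of Mcm2 to Mcm7 onto DNA, a step called licensing. In S phase the rings are activated by partners such as the GINS complex, polymerases alpha, delta and epsilon copy the strands, and Pcna, a ring placed by replication factor C, holds the polymerases on the template. Many of these genes are transcribed in late G1 under E2F factors. Erythroblasts of the yolk sac lineage still divide in the blood before they condense their nuclei. Cdt1 and the Setd8 protein are both known to be degraded in S phase through a ubiquitin ligase that recognises them on Pcna.

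Of the 54 genes, 14 fell in null cells set-adjusted and 0 rose at an adjusted p under 0.05 (edgeR quasi-likelihood with Benjamini-Hochberg over all tested genes; 25 lower and 1 higher at unadjusted p under 0.05, and 20 lower and 0 higher by DESeq2). That is 25.9% of the genes, where 4.16% of all tested genes were called lower and 8.65% higher. At unadjusted p under 0.05, 11.5% of all tested genes were lower, and by DESeq2 8.39% were called lower. The 14 were Mcm2, Mcm3, Mcm4 and Mcm6 of the helicase, Pola1, Pold1 and Pold3 of the polymerases, Dut of nucleotide metabolism, the histone and chromatin factors Nasp, Slbp, Uhrf1, Cdca7 and Atad2, and the deubiquitinase Usp1. Their log2 ratios of null to control ran from -1.20 to -0.56. The median over the 54 was -0.45, against 0.044 over all tested genes, and 48 of the 54 lay below 0, as did 47.6% of all. In 18 of the 54 every null library lay below every control library, against 9.16% of all tested genes, and in 1 (Orc5) every null library lay above, against 14.9%. Reads of the 54 genes together came to 7736, 7899 and 8156 CPM for controls 1 to 3 and 6327, 5249 and 6596 CPM for null libraries 1 to 3, so the groups did not overlap. Libraries are given in this order throughout. In bulk RNA, fewer cells in S phase and less of each transcript per cell cannot be told apart.

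The 14 calls depend on the set term. With group alone 0 of the 54 passed in either direction (lowest adjusted p = 0.0782, Cdca7; 11 lower and 0 higher at unadjusted p under 0.05). Of all tested genes 0.00951% were then called lower and 1.14% higher, and 4.99% were lower at unadjusted p under 0.05. The median of the 54 was then -0.41, against 0.13 over all genes. Without null replicate 1, the only null library of the unlettered set, 2 passed (Slbp and Usp1), and lower calls over all tested genes went from 437 to 40 (0.368%). Without control replicate 3, the only lettered control, 6 passed, with 180 over all genes (1.62%). With the presence of Y-linked transcripts as a further term 1 passed (Usp1), with 62 over all genes (0.59%). Of the 14, Usp1 and Slbp passed in each of the 6 fits that left out 1 library, Mcm3 in 2 of them, and Pold1, Nasp and Dut in 1. No label states whether the replicates are different embryos, and the p-values then measure only how far these samples spread, which may be technical.

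**Figure D1:**
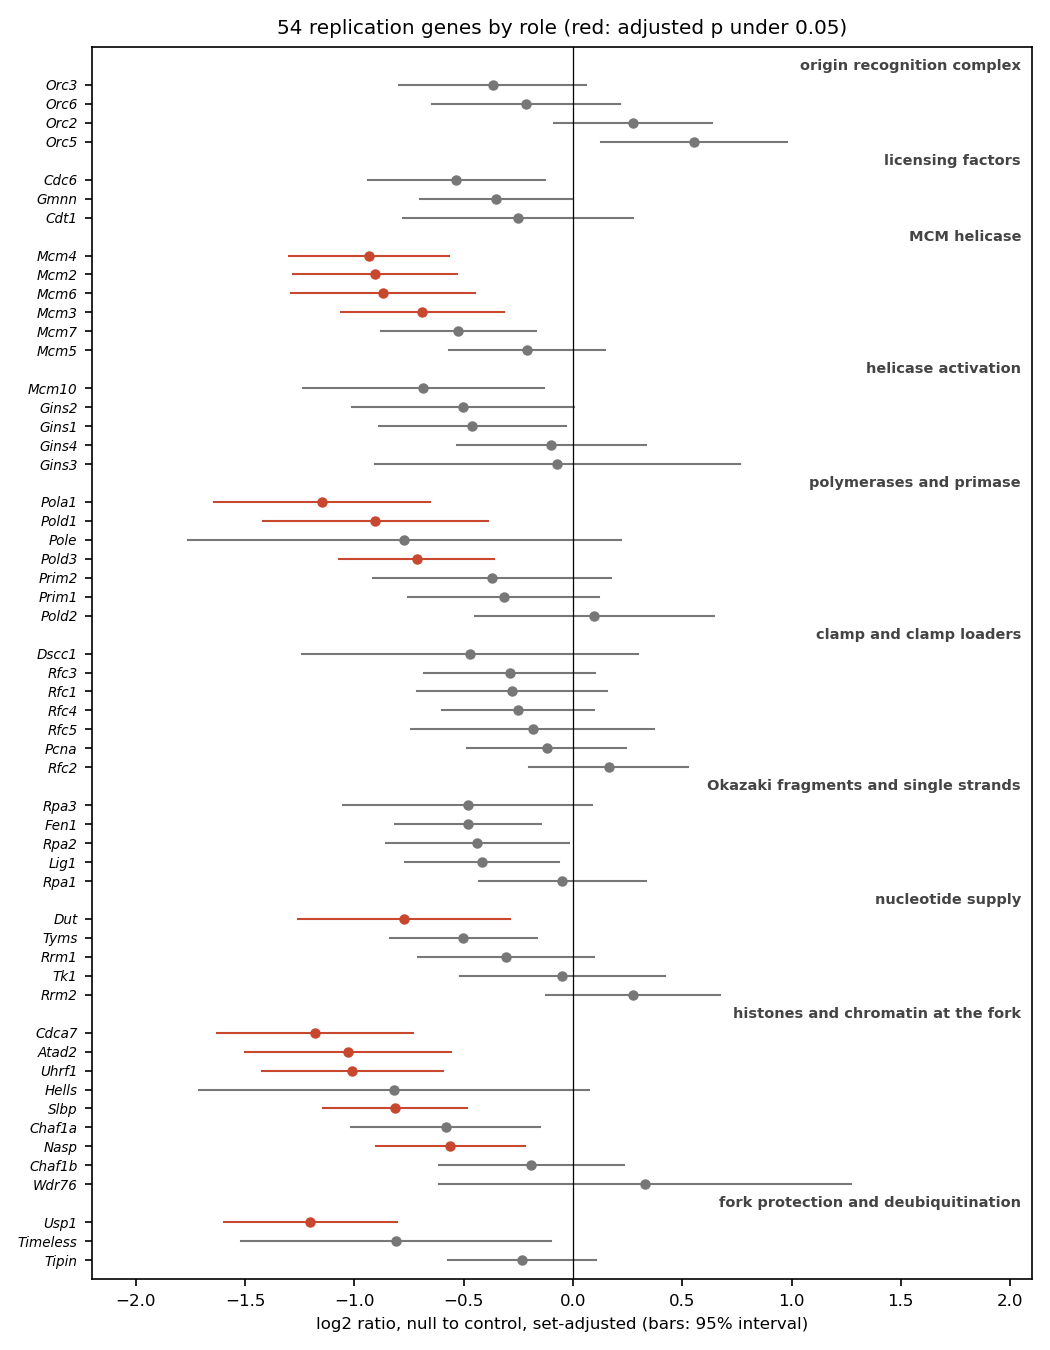
Log2 ratio of null to control (x axis, set-adjusted, bars: 95% interval) for all 54 genes (y axis), grouped by role and ordered within each role. The 14 genes in red passed at an adjusted p under 0.05. The roles that hold none of them are the origin recognition complex, licensing, helicase activation, the clamp and its loaders, and Okazaki fragments with single strands. Their median ratios, in that order, were 0.030, -0.35, -0.46, -0.25 and -0.44, against -0.45 over the 54. Roles were not compared by a test.

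Because many of these genes are textbook E2F targets, their promoters were searched for the 8-letter E2F-type elements TTTGGCGC, TTTCCCGC, TTTGCCGC and TTTCGCGC on both strands, in windows of 250 bases before to 50 after the start (RefSeq, GRCm38.p6; the counts were made on mm9). Windows were matched by symbol for 42 of the 54 genes. Of these, 16 held an element (38.1%), against 2.6% of the 27025 genes with a window and 5.1% of the 7574 tested genes with one. Among genes lower in null cells 7 of 11 with a window held one (Mcm3, Mcm6, Pola1, Pold1, Pold3, Uhrf1 and Cdca7), and among those that did not pass 9 of 31 (Orc3, Cdc6, Cdt1, Mcm5, Mcm7, Gins3, Rfc3, Lig1 and Hells). A match is a description of letters, not of binding. The 250 bases before the start are printed for 3 genes that fell, Mcm6 (chr1:128359706-128359955, minus strand), Pola1 (chrX:93632156-93632405, minus strand) and Cdca7 (chr2:72475969-72476218, plus strand), and for 2 that did not pass, Mcm5 (chr8:75109259-75109508, plus strand) and Cdc6 (chr11:98907901-98908150, plus strand). They run 5′ to 3′ on the gene's strand, with the elements in capitals. They are shown to let genes that fell and genes that did not be compared at the same kind of element.
Mcm6: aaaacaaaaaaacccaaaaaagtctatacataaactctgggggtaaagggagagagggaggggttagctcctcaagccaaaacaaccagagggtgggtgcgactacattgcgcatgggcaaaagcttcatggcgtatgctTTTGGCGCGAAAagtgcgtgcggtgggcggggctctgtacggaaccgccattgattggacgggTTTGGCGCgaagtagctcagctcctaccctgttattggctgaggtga
Pola1: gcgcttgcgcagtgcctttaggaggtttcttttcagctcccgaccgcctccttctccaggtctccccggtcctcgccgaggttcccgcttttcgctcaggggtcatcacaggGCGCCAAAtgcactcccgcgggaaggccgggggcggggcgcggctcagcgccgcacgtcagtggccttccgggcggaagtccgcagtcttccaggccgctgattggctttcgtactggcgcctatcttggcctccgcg
Cdca7: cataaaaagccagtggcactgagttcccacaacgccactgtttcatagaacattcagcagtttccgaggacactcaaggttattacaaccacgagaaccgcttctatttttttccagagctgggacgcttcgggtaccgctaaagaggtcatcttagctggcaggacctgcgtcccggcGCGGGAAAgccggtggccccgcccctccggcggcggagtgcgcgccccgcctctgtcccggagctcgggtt
Mcm5: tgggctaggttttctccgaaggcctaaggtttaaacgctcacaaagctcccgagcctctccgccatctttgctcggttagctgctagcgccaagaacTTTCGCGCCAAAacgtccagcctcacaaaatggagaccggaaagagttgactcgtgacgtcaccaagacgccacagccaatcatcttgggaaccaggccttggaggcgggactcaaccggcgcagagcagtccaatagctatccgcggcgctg
Cdc6: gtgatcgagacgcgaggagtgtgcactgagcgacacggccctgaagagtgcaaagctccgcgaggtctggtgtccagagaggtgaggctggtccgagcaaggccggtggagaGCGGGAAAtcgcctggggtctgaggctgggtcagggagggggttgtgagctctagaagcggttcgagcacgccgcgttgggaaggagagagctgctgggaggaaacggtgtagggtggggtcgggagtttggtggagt
Mcm6 held 3 elements, of which TTTGGCGC and TTTCGCGC on the other strand overlap in one run of capitals, and Mcm5 held the same 2 kinds overlapping in the opposite order. Pola1 had a single TTTGGCGC on the other strand, and Cdca7 and Cdc6 each a single TTTCCCGC on the other strand. Genes of the list with an element had ratios from -1.18 (Cdca7) to -0.072 (Gins3). The share with an element was 63.6% among genes that fell and 29.0% among those that did not pass. The difference was not tested.

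Licensing begins with the origin recognition complex, and neither its subunits nor the loading factors passed. Among Orc2, Orc3, Orc5 and Orc6, 2 ratios lay below 0 and 2 above. Orc5, an ATP-binding subunit, stood at 70.5, 69.9 and 51.0 CPM in control cells and 89.0, 78.2 and 95.1 CPM in null cells, so that every null library was above every control. Its log2 ratio was 0.55 (SE 0.195, edgeR adjusted p = 0.0868). Cdc6, the loader that joins the complex in G1, stood at 157, 217 and 160.0 CPM in control cells and 138, 89.7 and 118 CPM in null cells, with no overlap between groups. The log2 ratio was -0.53 (SE 0.186, edgeR adjusted p = 0.0839) for Cdc6, with a 95% interval of -0.94 to -0.13. Cdt1, which brings the rings to origins, stood at 37.5, 24.1 and 67.6 CPM in control cells and 25.1, 52.4 and 63.7 CPM in null cells. Those values split by title set rather than by group, and the log2 ratio was -0.25 (SE 0.239, edgeR adjusted p = 0.55), with an interval of -0.78 to 0.27. Gmnn, the gene for geminin, an inhibitor of Cdt1, had a log2 ratio of -0.35 (SE 0.159, edgeR adjusted p = 0.175).

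Of the 6 subunits of the ring 4 fell, with a median log2 ratio of -0.78. Mcm4 stood at 278, 302 and 226 CPM in control cells and 147, 104 and 139 CPM in null cells, and it fell by 0.93 in log2 units (SE 0.167, edgeR adjusted p = 0.00423). Every null library lay below every control, and the ratios were -0.97 within the unlettered set and -0.91 within the lettered one. Mcm3 stood at 350.5, 340.1 and 192 CPM in control cells and 181, 131 and 151 CPM in null cells and fell by 0.69 in log2 units (SE 0.171, edgeR adjusted p = 0.022), again with no overlap. Its ratio was -0.93 within the unlettered set and -0.45 within the lettered one, and without null replicate 1 it was -0.46 and did not pass (edgeR adjusted p = 0.241). Mcm2, at 276, 318 and 532 CPM in control cells and 152, 249 and 343 CPM in null cells, fell by 0.90 in log2 units (SE 0.171, edgeR adjusted p = 0.00594), although null replicate 3 lay above control replicates 1 and 2. Mcm6 went from 121, 89.6 and 469 CPM in control cells to 53.5, 229 and 321 CPM in null cells and fell by 0.87 in log2 units (SE 0.192, edgeR adjusted p = 0.0131). In both genes the groups separated within a title set but not across them, and for Mcm6 every lettered library was above every unlettered one. Mcm7 did not pass, at 352, 397 and 351 CPM in control cells and 287, 194 and 248 CPM in null cells, where the groups did not overlap (log2 ratio -0.53, SE 0.162, edgeR adjusted p = 0.0544). It lay close to the threshold: it passed with DESeq2 (adjusted p = 0.0106), RLE size factors, globin genes left out or no filter, as did Fen1 and Tyms, and over all alternatives its adjusted p ran from 0.0106 to 0.545. Mcm5 stood at 349.7, 371 and 344 CPM in control cells and 289, 279 and 361 CPM in null cells. Null replicate 3 lay within the range of the controls and the other null libraries below it, and the log2 ratio was -0.21 (SE 0.162, edgeR adjusted p = 0.445), with an interval of -0.57 to 0.14.

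The products of these 6 genes are needed in equal number in a ring, so their reads were also set against each other within each library, which takes scaling out. Reads of Mcm4 per read of Mcm5 were 0.794, 0.814 and 0.655 in the controls and 0.51, 0.373 and 0.385 in the null libraries. The groups did not overlap (exact permutation p = 0.1, 2-sided, adjusted p = 0.133 over 4 such ratios chosen after the values were seen; 3 against 3 libraries cannot give less than 0.1). Reads of Mcm2 per read of Mcm5 were 0.789, 0.856 and 1.55 in the controls and 0.527, 0.892 and 0.952 in the null libraries, and overlapped across the title sets (exact permutation p = 0.6, 2-sided, adjusted p = 0.6). Within each set every null library was below every control, which this test over all 6 libraries does not use. In each of the 4 pairs the first gene was called lower and the second was not. A lower ratio in null cells is therefore not separate support.

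**Figure D2:**
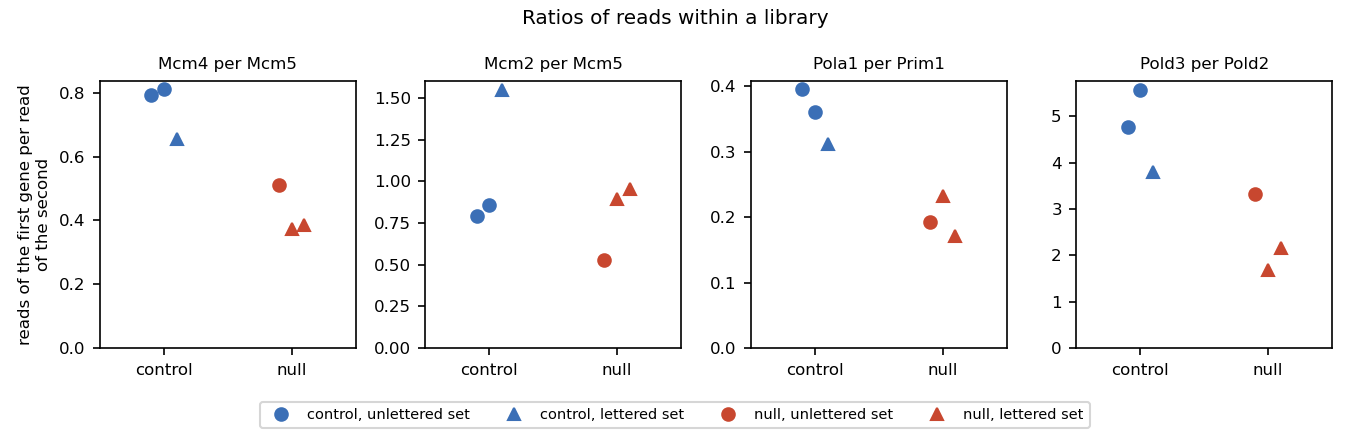
Reads of one gene per read of another in the same library (y axes, linear from 0) for 4 pairs of subunits of the same complex, by group (x axis). Points are libraries, circles the unlettered and triangles the lettered set; groups are apart for Mcm4 per Mcm5, Pola1 per Prim1 and Pold3 per Pold2 and overlap for Mcm2 per Mcm5, where they are apart within each set.

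None of the 5 genes that turn the ring into a working helicase passed, with a median log2 ratio of -0.46. Mcm10, which joins the helicase at origin firing, stood at 45.2, 51.0 and 52.1 CPM in control cells and 32.9, 22.03 and 37.1 CPM in null cells. The groups did not overlap, and the log2 ratio was -0.68 (SE 0.253, edgeR adjusted p = 0.102), with a 95% interval of -1.24 to -0.13. Among the GINS subunits, Gins1 and Gins2 had log2 ratios of -0.46 (edgeR adjusted p = 0.149) and -0.50 (edgeR adjusted p = 0.185), and Gins3 and Gins4 of -0.072 and -0.10.

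Of 7 polymerase and primase genes, Pola1, Pold1 and Pold3 fell. Pola1, the catalytic subunit of polymerase alpha, which starts every new strand with primase, stood at 60.2, 54.6 and 43.8 CPM in control cells and 25.7, 18.0 and 21.7 CPM in null cells. It fell by 1.15 in log2 units (SE 0.226, edgeR adjusted p = 0.00711), with -1.15 within the unlettered set and -1.14 within the lettered one, and no null library reached a control. Pola1 lies on the X chromosome. With Y-linked transcripts as a further term its ratio was -1.24 and it did not pass (edgeR adjusted p = 0.105). The primase subunits Prim1 and Prim2 did not pass, with log2 ratios of -0.32 (interval -0.76 to 0.12) and -0.37 (interval -0.92 to 0.17). Reads of Pola1 per read of Prim1 were 0.396, 0.361 and 0.312 in the controls and 0.192, 0.233 and 0.171 in the null libraries, without overlap (exact permutation p = 0.1, 2-sided, adjusted p = 0.133). Pold1, the catalytic subunit of polymerase delta, stood at 29.3, 28.7 and 61.5 CPM in control cells and 14.7, 31.1 and 38.2 CPM in null cells and fell by 0.90 in log2 units (SE 0.236, edgeR adjusted p = 0.0276). The groups overlapped across the sets and were apart within them. Pold3, an accessory subunit of the same enzyme, stood at 129, 134 and 114 CPM in control cells and 82.6, 64.5 and 70.0 CPM in null cells and fell by 0.72 in log2 units (SE 0.162, edgeR adjusted p = 0.0147), without overlap. Pold2, its partner, did not pass, with a log2 ratio of 0.10 and an interval of -0.45 to 0.64. Reads of Pold3 per read of Pold2 were 4.77, 5.56 and 3.79 in the controls and 3.32, 1.69 and 2.15 in the null libraries (exact permutation p = 0.1, 2-sided, adjusted p = 0.133). Pole, the catalytic subunit of polymerase epsilon, stood at 31.0, 23.7 and 30.6 CPM in control cells and 15.95, 7.03 and 28.8 CPM in null cells. Null replicate 3 reached the controls, and the ratio of -0.77 had an interval of -1.76 to 0.22.

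The clamp and its loaders held no call among 7 genes, and their median log2 ratio was -0.25. Pcna stood at 429.6, 381 and 395 CPM in control cells and 409, 283 and 380.4 CPM in null cells. Null replicate 2 was well below the controls, null replicate 1 lay within their range and null replicate 3 just under it, and the log2 ratio was -0.12 (SE 0.166, edgeR adjusted p = 0.696), with an interval of -0.48 to 0.24. The 5 subunits of replication factor C ran from -0.29 (Rfc3) to 0.16 (Rfc2). Dscc1, part of an alternative loader used for sister chromatid cohesion, stood at 12.7, 9.90 and 19.998 CPM in control cells and 6.78, 18.5 and 15.8 CPM in null cells, and its log2 ratio was -0.47 (SE 0.351, edgeR adjusted p = 0.428). The interval was -0.20 to 0.53 for Rfc2 and -1.24 to 0.30 for Dscc1, so the size of a fall that these data leave possible differs widely between the genes.

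The 5 genes of fragment joining and single-strand binding likewise did not pass. Fen1, the nuclease that trims Okazaki fragments, had a log2 ratio of -0.48 (SE 0.153, edgeR adjusted p = 0.0611), and Lig1, the ligase that seals them, one of -0.42 (SE 0.161, edgeR adjusted p = 0.115). The subunits of replication protein A, the single-strand binding complex, stood at -0.049 (Rpa1), -0.44 (Rpa2) and -0.48 (Rpa3). Rpa3 was at 38.5, 35.7 and 45.3 CPM in control cells and 37.5, 24.0 and 22.1 CPM in null cells. Both lettered null libraries were low and null replicate 1 was level with the controls, and the adjusted p was 0.26 by edgeR.

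In nucleotide supply 1 of 5 genes fell. Dut, the enzyme that removes dUTP from the pool, stood at 12.4, 16.9 and 111 CPM in control cells and 9.06, 66.4 and 58.8 CPM in null cells, and fell by 0.77 in log2 units (SE 0.221, edgeR adjusted p = 0.0405), with -0.67 within the unlettered set and -0.83 within the lettered one. Every lettered library was above every unlettered one, and the groups separated within each set only. Tyms, which makes thymidylate, was at 331, 335 and 287 CPM in control cells and 261, 168 and 199 CPM in null cells. Its groups did not overlap, and the log2 ratio was -0.50 (SE 0.153, edgeR adjusted p = 0.0531). The ribonucleotide reductase subunits Rrm1 and Rrm2 had log2 ratios of -0.31 (interval -0.71 to 0.10) and 0.28 (interval -0.12 to 0.67). Rrm2 was highest of all libraries in null replicate 1, at 899 CPM, and the thymidine kinase gene Tk1 had a ratio of -0.05 (interval -0.52 to 0.42).

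Genes for histone supply and chromatin at the fork held 5 of the 14 calls, among 9 genes. Cdca7, a cofactor of the remodeller Hells, stood at 72.8, 80.1 and 73.6 CPM in control cells and 29.98, 34.0 and 38.8 CPM in null cells and fell by 1.18 in log2 units (SE 0.205, edgeR adjusted p = 0.00361). Its libraries varied little within a group and did not overlap between groups, and its ratio was -1.35 within the unlettered set and -1.02 within the lettered one. Uhrf1, which brings the maintenance DNA methyltransferase to newly copied DNA, stood at 267, 307 and 197 CPM in control cells and 140.5, 78.0 and 120.3 CPM in null cells. It fell by 1.01 in log2 units (SE 0.19, edgeR adjusted p = 0.00561), and every null library was below every control. Atad2, a bromodomain ATPase on new chromatin, was at 68.2, 67.7 and 80.8 CPM in control cells and 32.5, 32.7 and 48.1 CPM in null cells and fell by 1.03 in log2 units (SE 0.216, edgeR adjusted p = 0.0101), again without overlap. Slbp, the protein that binds the stem-loop of histone messages, stood at 224, 226 and 369 CPM in control cells and 132, 187 and 219 CPM in null cells and fell by 0.81 in log2 units (SE 0.15, edgeR adjusted p = 0.00519). All null libraries were below all controls, although null replicate 3 and control replicate 1 were close. Nasp, a histone chaperone, was at 174, 169 and 150.1 CPM in control cells and 125, 87.8 and 101 CPM in null cells and fell by 0.56 in log2 units (SE 0.156, edgeR adjusted p = 0.0369), without overlap. The others did not pass. Chaf1a and Chaf1b, subunits of the chromatin assembly factor, had ratios of -0.58 (SE 0.198, edgeR adjusted p = 0.0772) and -0.19 (SE 0.194, edgeR adjusted p = 0.579), Hells -0.82 (interval -1.71 to 0.075) and Wdr76 0.33 (interval -0.61 to 1.27).

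Usp1, the deubiquitinase that removes ubiquitin from Pcna, had the lowest ratio of the 54. It stood at 63.1, 57.4 and 155 CPM in control cells and 24.5, 70.1 and 73.3 CPM in null cells and fell by 1.20 in log2 units (SE 0.181, edgeR adjusted p = 0.00157), with -1.29 within the unlettered set and -1.11 within the lettered one. Null replicates 2 and 3 lay above control replicates 1 and 2, so the fall shows within the sets and not across them. The fork protection partners Timeless and Tipin did not pass, with ratios of -0.81 (SE 0.324, edgeR adjusted p = 0.129) and -0.23 (SE 0.155, edgeR adjusted p = 0.366).

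**Figure D3:**
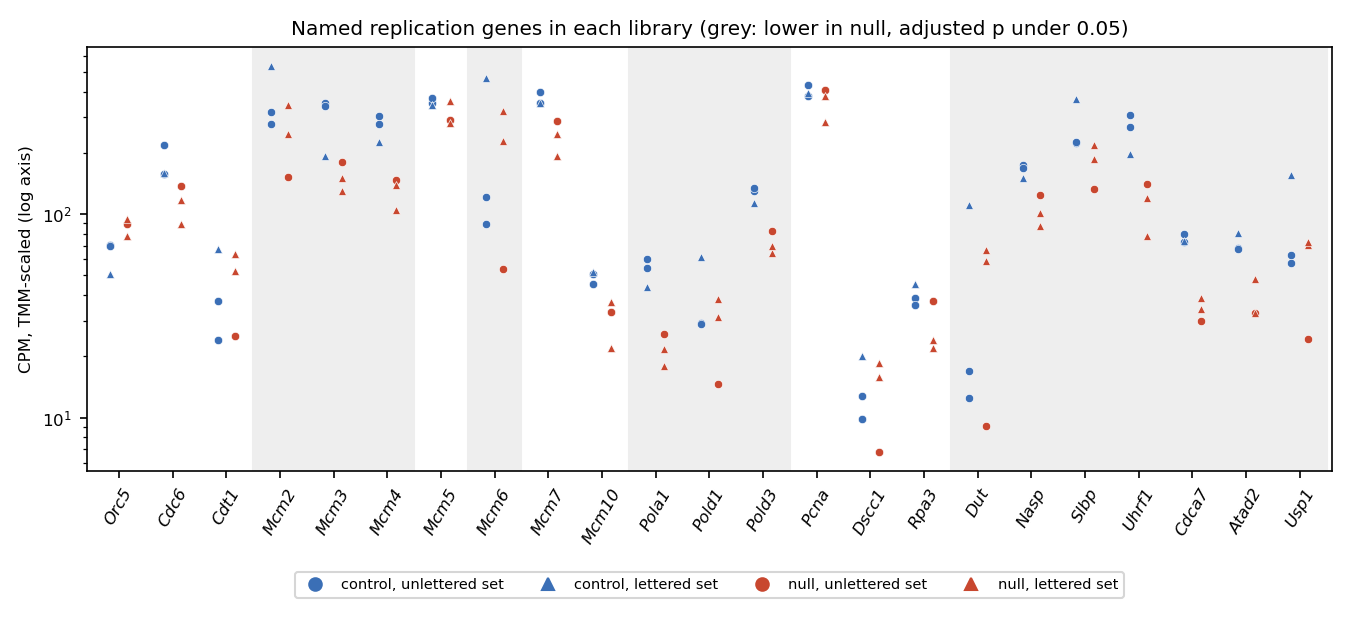
Level of 23 named genes (x axis) in each library (y axis, CPM scaled by trimmed means, log axis). Blue points are controls and red points null libraries, circles the unlettered and triangles the lettered set. Grey bands mark the 14 genes that fell, of which 9 have every red point below every blue one. Over all tested genes, 300 of the 437 called lower have every null library below every control.

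Both title sets held null and control libraries and shared none, so each gives its own ratio. In the lettered set, the control had 0 Y-linked reads and null replicates 2 and 3 had 2660 and 2330. There, group and the presence of Y-linked transcripts cannot be told apart. In 42 of the 54 genes the null libraries were lower in both sets, against 32.5% of all tested genes, and in 3 they were higher in both, against 36.2%. The 14 genes that fell were lower in each set, but they were picked by a fit that pools both ratios, so this is not separate support. The median ratio of the 54 was -0.36 in the unlettered set (null replicate 1 against 2 controls) and -0.48 in the lettered set (2 null libraries against control replicate 3). Pearson's r between the ratio in one set and that in the other, taken across the 54 genes, was 0.584, a description over genes that share libraries and depth; over all tested genes it was 0.634. A test of the difference between the sets, the interaction of set and group, called 0 of the 54 (edgeR, lowest adjusted p = 0.678; 2 at unadjusted p under 0.05, Rpa2 and Tk1, where 7.21% of all genes had such a p). Tk1 was 0.38 within the unlettered set and -0.47 within the lettered one, and Rpa2 -0.068 within the unlettered set and -0.80 within the lettered one. This fit has 2 residual degrees of freedom.

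**Figure D4:**
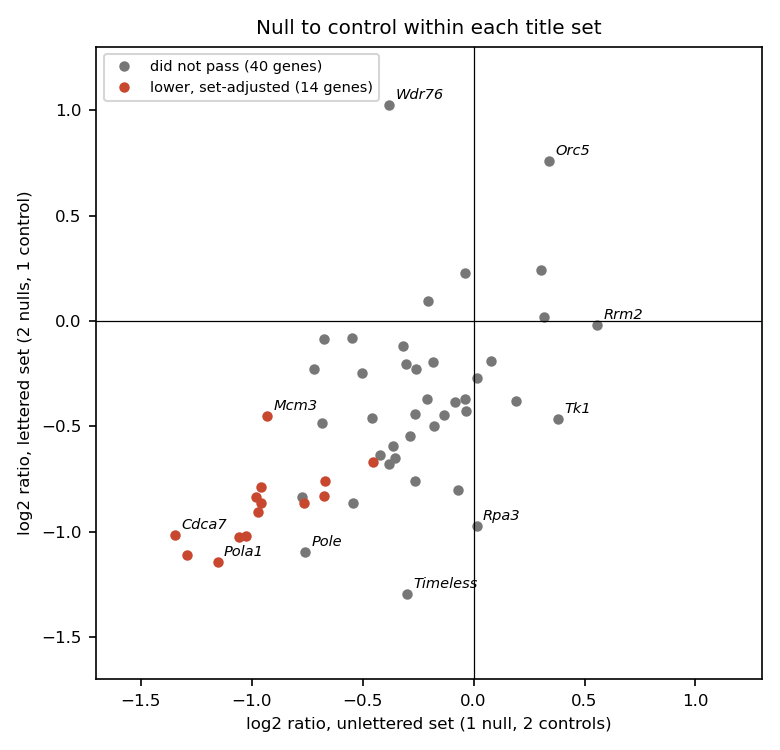
Log2 ratio of null to control in the unlettered set (x axis) and in the lettered set (y axis) for the 54 genes. The 14 genes that fell set-adjusted (red) were picked by a fit that pools both ratios. They all lie at the lower left, below 0 on both axes, as do 42 of the 54. Labelled genes include Tk1 and Wdr76, whose ratios differ in sign between the sets.

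With group in the model, 12 were higher and 7 lower in the lettered set (edgeR adjusted p under 0.05), which is near the share of all tested genes, 17.7% and 10.9%. The sizes were large for a few. Rfc5, a clamp loader subunit, stood at 9.48, 8.79 and 99.2 CPM in control cells and 8.88, 58.0 and 102 CPM in null cells. The 3 unlettered libraries were all about as low as each other and the 3 lettered ones many times higher. The log2 ratio of the lettered to the unlettered set was 3.31 (SE 0.27, edgeR adjusted p = 4.12e-06). Dut (2.85), Mcm6 (2.26), Hells (1.72), Gins4 (1.49) and Usp1 (1.46) were also higher in the lettered set. Wdr76, at 32.3, 38.1 and 3.26 CPM in control cells and 26.9, 9.14 and 4.96 CPM in null cells, was the gene furthest in the other direction, with -2.66 (SE 0.436, edgeR adjusted p = 0.000673). Of the 14 genes that fell in null cells, 7 also differed between the sets: Mcm2, Mcm6, Pold1, Dut, Slbp and Usp1 were higher and Mcm3 lower in the lettered libraries. Over all tested genes, 171 of the 437 called lower in null cells also differed between the sets. The count lower in the lettered set fell to 2 without control replicate 1 or null replicate 2 and to 3 without control replicate 2 or null replicate 1, and the count higher to 7 without control replicate 3.

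**Figure D5:**
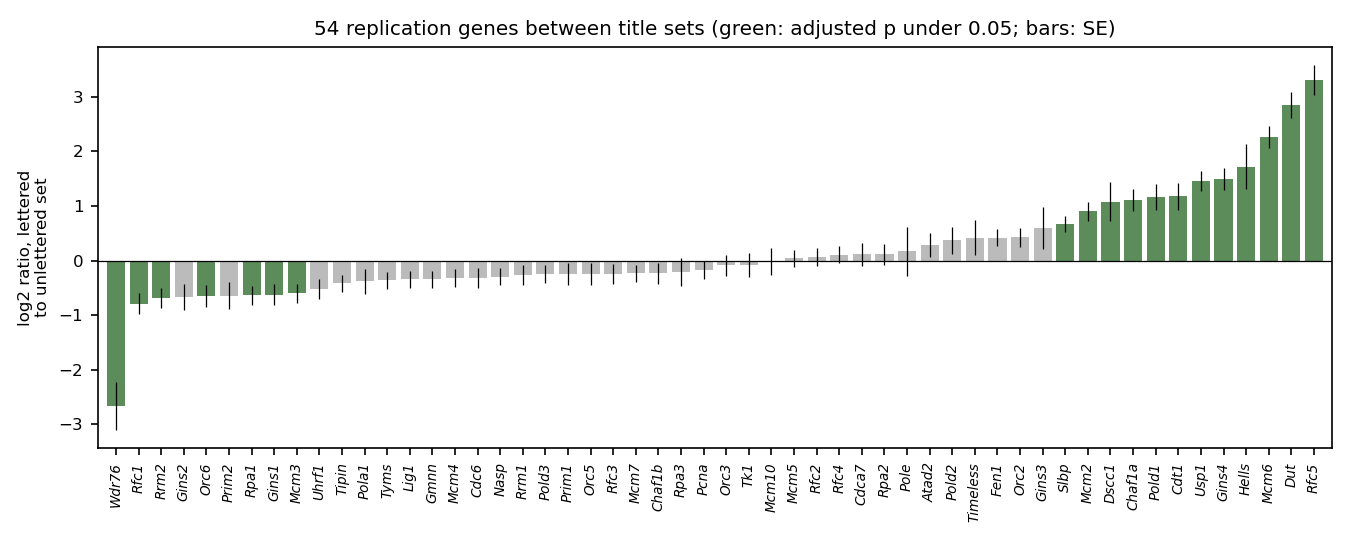
Log2 ratio of the lettered to the unlettered set (y axis, group in the model, error bars: SE) for the 54 genes in order (x axis). Green bars passed at an adjusted p under 0.05, 12 above and 7 below 0, from Wdr76 at -2.66 to Rfc5 at 3.31.

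Some counts can hold reads of a neighbour or miss reads that overlap one. Neither the strand setting nor the handling of such reads is given in the sources used here. By GENCODE M21 exons, 16 of the 54 genes share exon bases with another gene, 14 of them with a gene on the other strand. They include Gins2 with Gse1, Chaf1a with Ubxn6, Fen1 with Gm10143, Rfc5 with Wsb2 and Orc2 with Nif3l1. Of the 14 genes that fell, Slbp is the one concerned, with Gm10459 on the other strand, so 13 of the other 38 genes fell. Among genes that differed between title sets 5 of 19 shared an exon, and among the rest 11 of 35.

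Levels of different genes can be compared only per length. Per kilobase of GENCODE exon, the highest in controls were Pcna at 265 ± 16.6 CPM per kilobase (SD, n = 3) and Rrm2 at 257 ± 45.6, which did not differ beyond their spread. Fen1 followed at 153 ± 36.0, Tipin at 125 ± 14.3, Rrm1 at 124 ± 23.6 and Mcm7 at 124 ± 8.999, again within each other's spread. Within the ring, Mcm2 (111 ± 40.8), Mcm5 (103 ± 4.11), Mcm3 (97.1 ± 29.2) and Mcm4 (74.8 ± 10.9) came next, and Mcm6 had 51.7 ± 48.1. The lowest subunit of the ring followed the title set in both groups, though only narrowly in the lettered control. It was Mcm6 in the unlettered libraries, at 27.6 and 20.5 CPM per kilobase for both controls and 12.2 for null replicate 1. In the lettered libraries it was Mcm4, at 62.8 CPM per kilobase for the control, 29.0 for null replicate 2 and 38.7 for null replicate 3. Mcm3 was nearly level with Mcm4 in that control, at 63.5, so this 1 library does not settle which was lowest. These polymerase subunits were far below the clamp: Pold3 stood at 40.3 ± 3.35, Pold1 at 11.5 ± 5.43, Pola1 at 9.89 ± 1.56 and Pole at 3.83 ± 0.554 in controls, and Hells was the lowest of all 54, at 1.75 ± 1.33. The exons are those of a later annotation than the one counted, which shifts such levels between genes but not between libraries. Fen1 shares 78.8% of its exon bases with Gm10143, which can also shift its level.

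A second list of 49 replication genes outside the 54 gave 48 tested genes, of which 8 fell (16.7%, against 4.16% of all tested genes) and 1 rose (8.65% of all tested genes did), set-adjusted, with a median log2 ratio of -0.31. With group alone 0 passed in either direction (12 lower and 1 higher at unadjusted p under 0.05, where 4.99% of all tested genes were lower). Those that fell were Dbf4, the activator of the Cdc7 kinase that fires origins; Pole4, a small subunit of polymerase epsilon; Wdhd1, which ties polymerase alpha to the helicase; the nuclease Exo1; topoisomerase Top2a; the maintenance methyltransferase Dnmt1; and Ssrp1 and Supt16h, which together form the histone chaperone FACT. Exo1 went from 44.7 ± 6.10 to 17.2 ± 7.70 CPM (SD, n = 3 each; log2 ratio -1.34, SE 0.328, edgeR adjusted p = 0.021), and Supt16h from 261 ± 123 to 109 ± 11.7 CPM (log2 ratio -1.03, SE 0.249, edgeR adjusted p = 0.0207). Without control replicate 3 the ratio of Exo1 was -0.76 and did not pass (edgeR adjusted p = 0.34), and its ratio was -0.74 within the unlettered set and -1.998 within the lettered one. Supt16h did not pass without null replicate 1 (-0.74, edgeR adjusted p = 0.281), null replicate 2 or control replicate 3. Pold4, the smallest subunit of polymerase delta, rose from 2.58 ± 1.21 to 9.37 ± 3.05 CPM (log2 ratio 2.18, SE 0.562, edgeR adjusted p = 0.0264), with every null library above every control; it did not pass without control replicate 1 or 3 or null replicate 1 or 2. Within polymerase delta the 4 subunits therefore gave 2 lower calls (Pold1 and Pold3), 1 higher call (Pold4) and 1 that did not pass (Pold2). Dnmt1, which Uhrf1 recruits, went from 145 ± 34.4 to 70.6 ± 10.6 CPM (log2 ratio -0.89, SE 0.201, edgeR adjusted p = 0.0146). Without null replicate 1, 1 gene of this list fell and 0 rose, without null replicate 2, 3 and 0, without control replicate 1, 5 and 0, and without null replicate 3, 15 and 1.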

How the data were processed

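Raw read counts per gene symbol were deposited by the authors, without normalization and in a separate table for each library, for 3 Setd8 null and 3 control erythroblast samples. Per the submitters' processing notes, the tools were FastQC, Trimmomatic (0.32), TopHat2 (2.1.0), HTSeq (0.6.1) and edgeR, with build mm9; neither options nor a strand setting is given in the sources used here. Summary lines that name no gene, present in the 3 tables of the unlettered set, were left out, and 25 symbols turned into dates were mapped back one to one. Reads assigned to no feature were 42.9% of the table total for control replicate 1, 7.72% for control replicate 2 and 6.07% for null replicate 1. Control replicate 1 also had the fewest reads in genes, 7756940.

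The main analysis used edgeR 4.0.16 under R 4.3.3: filterByExpr by group (10512 genes), TMM scaling, estimateDisp, glmQLFit with robust=TRUE and glmQLFTest, 2-sided, Benjamini-Hochberg adjustment over all genes at 0.05, with title set and group as terms (3 residual degrees of freedom). The labels state no design; the set term follows the trailing letter of the sample titles. A ratio within a set subtracts mean log2 CPM values (prior count 2) of the groups. Intervals are 95%. The script was tested on simulated data. The members, lists, tests and the rule for named genes (every gene past the threshold, the largest ratio within each role, and Pcna, Cdt1 and Mcm2 to Mcm7; other replication genes past the threshold and over 2-fold, at most 8) were chosen with earlier results of these data known. Genes given values beyond that rule (Pole, Tyms, Rfc5, Wdr76 and Dnmt1 among them) were chosen after their values were seen. Promoter windows are RefSeq's (for the 7 members with several starts, a match in any window counted) and were searched with Python 3.11.15; no window was used for Gmnn, Mcm4, Gins1, Gins2, Gins4, Prim2, Pole, Rfc2, Dscc1, Atad2, Tipin and Usp1. The values of 1 marker gene are not reported here. Alternatives were group alone, DESeq2 (1.42.0), RLE size factors, globin genes left out, no filter, each library left out, and Y-linked transcripts as a term.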

Additional observations from a re-analysis of the deposited data

How the results depend on the processing

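Of the 54 genes, 14 were lower and 0 higher. With DESeq2, RLE size factors, globin genes left out or no filter on low counts, 17 to 20 were lower, all 14 among them with Mcm7, Fen1 and Tyms, and 0 higher; over all genes 437 were lower, and under these alternatives 520 to 882. With group alone 0 were lower, and with Y-linked transcripts as a term 1. With 1 library left out 2 to 20 were lower, fewest without null replicate 1 (2), then without control replicate 3 (6), and 0 higher, while over all genes 40 to 734 were lower, with the same lowest and highest library; fewer samples and, in these fits, a set with no null or no control library go with the loss. Without null replicate 3, 20 were lower. Added after seeing the data, the count over genes that share no exon with another was 13 of 38. The ratio reversed for Cdt1 with group alone (0.13) and, within the unlettered set, for Pcna (0.017) and Rpa3 (0.015); the cause was not tested. The median ratio of all genes moved from 0.044 to 0.20 with no filter, where the median of the 54 was -0.49.

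Of the other replication genes 8 were lower and 1 higher; 0 and 0 with group alone, and 15 lower with no filter. With 1 library left out 1 to 15 were lower and 0 to 1 higher. Between title sets, 7 of the 54 were lower and 12 higher in the lettered libraries; 11 were lower with RLE size factors, and with 1 library left out 2 to 10 were lower and 7 to 12 higher. The interaction of set and group called 0 genes of the 54 under each scaling and filter run. No paired analysis was possible because the labels give the libraries no shared replicate numbers. Depth limits the genes with the fewest reads in a library, Hells (43), Gins3 (48) and Rfc5 (64).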
